A study of Mus musculus with 16 samples.

Results

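The make-up of the transcript pool of the unchallenged mouse ventricle was described from 8 bulk RNA-seq libraries, the control libraries among the 16 of the series. They were chosen by their labels alone, as the libraries of mice that ate plain chow, with no use of any measured value. All 16 came from ventricles of wild-type C57BL/6 mice of 8 weeks of age at the start. The 8 controls, 4 males and 4 females, ate standard chow for 6 weeks, and the other 8, also 4 of each sex, were given adenine in their food on and off over the same time, which brings about chronic kidney disease. The adenine-fed mice entered here only as 2 further groups in 1 estimate of the spread between libraries, and no contrast with them is given. RNA was taken from whole ventricles without any sorting of cells, so fewer cells of a type and less RNA per cell cannot be told apart. The labels name no shared cage, day or pool for any control, and nothing beyond the separate titles says how the libraries relate, so every spread and p-value below describes the differences between these libraries.

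A ventricle is a pump of working cardiomyocytes woven through with capillaries, fibroblasts, pericytes and resident macrophages. Its cardiomyocytes beat without rest and burn mainly fatty acids in densely packed mitochondria, and many of their proteins come as one member of a gene family of which other members serve atria, skeletal muscle or the fetal heart. In the adult mouse ventricle the fast alpha myosin heavy chain Myh6 replaces the slower beta chain Myh7 of the fetus, and cardiac actin, cardiac troponins and the calcium pump SERCA2 make up the contractile and calcium-handling machinery. Sarcolipin, the light chains Myl4 and Myl7 and the hormone Nppa are classic products of the atrial wall.

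The 8 control libraries held between 10203707 and 13626039 counts each, and between 23317 and 24532 of the 33399 listed genes had at least 1 count. Levels between genes are given as TPM, the counts divided by the summed exon length of the gene and scaled to a total of 1000000 transcripts per library, and levels of 1 gene across libraries are given as CPM, the counts per 1000000 of a library's total after scaling by trimmed means. A total of 13412 genes, 10634 of them protein coding, stood at 1 TPM or more in all 8 libraries. The pool was concentrated in few genes. An average of 541 ± 43.3 genes (SD, n = 8) together held 50% of a library's counts, with the lowest number, 489, in female 2 and the highest, 593, in female 3. The 10 genes with the most counts took 9.99% ± 0.544 and the top 100 took 29.4% ± 1.08 (SD, n = 8). Protein-coding genes held 88.6% ± 0.601 of the counts, lincRNA genes held 0.540% ± 0.0546, processed pseudogenes held 5.03% ± 0.439 and unprocessed pseudogenes held 4.29% ± 0.247.

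Transcripts of the mitochondrial genome, which encodes core subunits of the respiratory chain and ATP synthase, were the most abundant of all. They took 9.28% ± 0.594 of the counts (SD, n = 8), between 8.45% in male 3 and 10.1% in female 4, so that the 8 libraries lay within a narrow range. The cytochrome oxidase subunit mt-Co1 led with 23764 ± 1342 TPM and 1.87% ± 0.109 of all counts. It was followed by mt-Co3 at 19926 ± 904 TPM, mt-Co2 at 18564 ± 868 TPM and the ATP synthase subunit mt-Atp6 at 18395 ± 951 TPM. The lowest of the 13 mitochondrial protein-coding genes, the complex I subunit mt-Nd3, stood at 6182 ± 389 TPM, still above every protein-coding gene of the nucleus. The 2 mitochondrial ribosomal RNAs together took only 0.530% ± 0.0824 of the counts, with mt-Rnr2 at 4549 ± 750 TPM and mt-Rnr1 at 3316 ± 402 TPM.

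A pseudogene block on chromosome 1 had between 88.6% and 126% of the counts per base of the mitochondrial genes it copies. The 7 genes annotated between positions 24611535 and 24616197 of chromosome 1 (GRCm38) took 3.77% ± 0.222 of the counts. Per base of gene, Gm28661 had 107% ± 0.620 of the counts of mt-Co2, Gm28437 had 106% ± 0.581 of those of mt-Co3 and Gm10925 had 126% ± 0.877 of those of mt-Atp6. Gm28438 had 110% ± 1.37 of those of mt-Nd3, Gm10222 had 104% ± 0.810 of those of mt-Nd4l, Gm29216 had 95.3% ± 5.24 of those of mt-Co1 and Gm28439 had 88.6% ± 5.60 of those of mt-Nd4 (SD, n = 8). Of the 50-base words of these 7 genes, as long as a read, between 97.1% and 100% also occur in another listed gene. A read of 50 bases from such a word cannot by itself be assigned to the copy or its source, and the share that each took depends on how the counting divided these reads. Words were compared singly, without regard to the other read of a pair. Of the sources, only mt-Co1 and mt-Nd4 are in large part distinct, with 51.1% and 62.2% of their words in another gene. For mt-Co2, mt-Co3, mt-Atp6, mt-Nd4l and mt-Nd3 it is 98.0% to 100%. The levels and order of these mitochondrial genes, and the mitochondrial share of 9.28%, therefore also depend on how the reads were divided. Genes of the whole table with 90% or more of their words in another gene took 8.15% ± 0.411 of the counts.

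The following coding stretches show how far 4 gene pairs differ at the start of the coding sequence, since several of the results below turn on the share of one family member against another. Each is the first 100 bases from the start codon, or the matching stretch of the pseudogene, 5′ to 3′, from the GENCODE transcripts of GRCm38, and capitals mark the bases that differ within a pair. The pairs are the 2 cardiac myosin heavy chains, the cardiac and skeletal alpha actins, the heart fatty acid-binding protein with its processed pseudogene, and a mitochondrial gene with its copy on chromosome 1.
Myh6, chr14:54965361-54965460, minus strand: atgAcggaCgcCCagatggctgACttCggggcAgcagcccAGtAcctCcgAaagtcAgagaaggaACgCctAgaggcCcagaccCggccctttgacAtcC
Myh7, chr14:54992774-54992873, minus strand: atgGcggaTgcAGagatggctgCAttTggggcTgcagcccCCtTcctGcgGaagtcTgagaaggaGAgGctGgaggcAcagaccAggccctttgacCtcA
Actc1, chr2:114051932-114052031, minus strand: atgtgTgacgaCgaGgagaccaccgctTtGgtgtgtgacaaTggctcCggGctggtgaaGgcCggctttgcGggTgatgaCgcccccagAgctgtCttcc
Acta1, chr8:123893598-123893697, minus strand: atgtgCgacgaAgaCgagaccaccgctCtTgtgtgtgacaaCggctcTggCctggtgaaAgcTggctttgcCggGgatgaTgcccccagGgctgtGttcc
Fabp3, chr4:130308778-130312317 with the intron left out, plus strand: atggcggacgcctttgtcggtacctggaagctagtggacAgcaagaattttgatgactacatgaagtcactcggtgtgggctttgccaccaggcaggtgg
Fabp3-ps1, chr10:86732289-86732388, minus strand: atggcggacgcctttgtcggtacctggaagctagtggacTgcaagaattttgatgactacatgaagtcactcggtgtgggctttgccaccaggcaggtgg
mt-Co2, chrM:7013-7112, plus strand: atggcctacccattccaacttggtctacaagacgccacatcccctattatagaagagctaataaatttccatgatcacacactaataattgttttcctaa
Gm28661, chr1:24615466-24615565, minus strand: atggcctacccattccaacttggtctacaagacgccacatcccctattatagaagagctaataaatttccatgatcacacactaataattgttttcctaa

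In these stretches Myh6 and Myh7 differ at 22 of 100 bases with no identical run over 11 bases, and Actc1 and Acta1 differ at 15 with no identical run over 12. None of the 51 windows of 50 bases is free of a difference in either pair. Over the whole transcripts the myosin pair is less distinct, with 22.6% of the 50-base words of Myh6 and 28.2% of those of Myh7 in another gene, with the other chain as main partner, against 0% for Actc1 and 2.22% for Acta1. Fabp3 and Fabp3-ps1 differ at 1 base, and 11 of 51 windows hold no difference. The stretches of mt-Co2 and Gm28661 are identical over all 100 bases.

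Among nuclear genes the ranking by level per length mixed muscle genes with such copies. Of the 25 most abundant nuclear genes, 13 were pseudogenes, including all 7 of the chromosome 1 block, and 12 were protein coding. Fabp3-ps1, on chromosome 10, stood at 7032 ± 633 TPM above its source gene Fabp3 at 5344 ± 377 TPM, and 64.0% of its words occur in Fabp3. These 2 levels cannot be separated with certainty. Among protein-coding genes Fabp3, which carries fatty acids through the cytosol, came first. The sarcomeric actin Actc1 followed at 5061 ± 842 TPM, and then the oxygen store myoglobin, Mb, at 4306 ± 205 TPM and Myh6 at 3666 ± 866 TPM. Regulatory and essential light chains Myl2 and Myl3 stood at 3068 ± 247 and 2985 ± 214 TPM, the calcium sensor troponin C, Tnnc1, at 2726 ± 238 TPM and the titin cap Tcap at 2673 ± 521 TPM (SD, n = 8).

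Genes of energy supply filled most of the other leading places. The adenine nucleotide translocator Slc25a4, which exchanges ATP for ADP across the inner membrane, stood at 3014 ± 154 TPM, the mitochondrial creatine kinase Ckmt2 at 2635 ± 176 TPM and the ATP synthase subunits Atp5a1 and Atp5b at 2573 ± 133 and 1949 ± 92.9 TPM. The muscle forms of cytochrome oxidase subunits followed, with Cox6a2 at 2068 ± 205, Cox8b at 1943 ± 217 and Cox7a1 at 1608 ± 156 TPM. The heart form of lactate dehydrogenase, Ldhb, had 1955 ± 132 TPM and the malate dehydrogenase Mdh1 had 1724 ± 91.9 TPM. The spread between libraries was small for these enzymes, and larger for Myh6 (2457 TPM in female 2 to 5219 TPM in male 4) and for the SERCA2 gene Atp2a2 (1375 TPM in female 2 to 3223 TPM in male 4, mean 2504 ± 612).

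**Figure D1:**
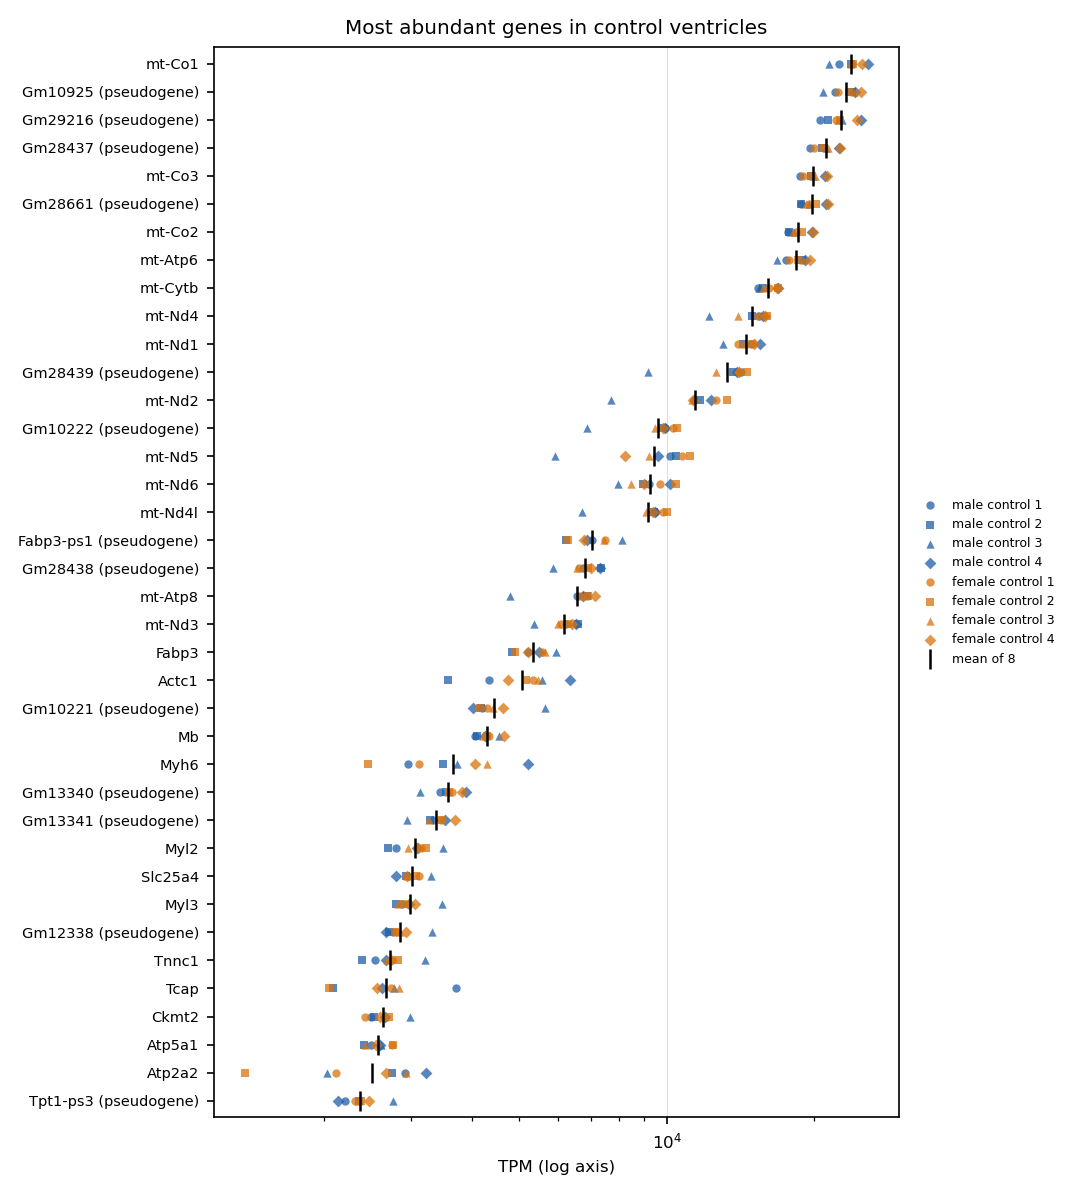
Levels in TPM on a log axis of the 13 mitochondrial protein-coding genes and the 25 most abundant nuclear genes in each of the 8 control libraries (blue points, males; orange points, females; black marks, means). The means of the 13 mitochondrial genes lie at 6182 TPM or more, 13 of the 25 nuclear genes are pseudogenes, and the points of Atp2a2 run from 1375 to 3223 TPM.

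A ranking by counts looked different from a ranking by level, since a long transcript collects more fragments than a short one at the same level. Myh6 alone took 1.26% ± 0.286 of all counts and Atp2a2 0.774% ± 0.172. Fabp3, with a higher TPM than either, took 0.225% ± 0.0208. The 100 most abundant nuclear protein-coding genes had a median summed exon length of 1667 bases and a median of 4.5 exons, against 4402 bases and 8 exons over the 10621 nuclear protein-coding genes at 1 TPM or more in all controls. Their median GC content was 52.8% against 49.3%, and together they took 14.5% of the counts. Of the non-coding nuclear RNAs, Malat1 stood at 272 ± 114 TPM, between 166 and 499 TPM, and Neat1 at 62.0 ± 9.63 TPM.

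The share of each member of a gene family in the family's summed TPM was computed for 66 families with a known cardiac member. One member held over 99% of the family in 9 of them, 90% to 99% in 15, 50% to 90% in 34 and less than 50% in 8. The same member led in all 8 libraries in 54 of the 66. In each of the 5 thin filament families one member held 86.2% or more, and in each of the 3 Z-disc families 92.3% or more. The 8 calcium-handling families ran from 36.3% to 99.8%, the 5 receptor families from 47.2% to 99.4% and the 4 families of transcription factors from 41.0% to 72.1%.

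In the thick filament Myh6 held 91.7% ± 0.943 of the muscle myosin heavy chains and Myh7 held 7.80% ± 0.944 (SD, n = 8). Myh6 stood at 2968, 3492, 3726 and 5219 TPM in males 1 to 4 and at 3114, 2457, 4290 and 4066 TPM in females 1 to 4. Myh7 stood at 272, 370, 296 and 378 TPM in the males and at 280, 220, 330 and 306 TPM in the females. Both chains were lowest in female 2 and highest in male 4, and the share of Myh6 stayed between 89.9% and 92.8%. The ventricular essential light chain Myl3 held 93.1% ± 1.49 of its family and the regulatory chain Myl2 held 80.7% ± 4.54 of its own. Myosin binding protein C was almost all of the cardiac form, Mybpc3, at 99.4% ± 0.157.

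In the thin filament cardiac troponin C, Tnnc1, held 100% of the troponin C reads per length, cardiac troponin I, Tnni3, held 99.9% ± 0.0265 and cardiac troponin T, Tnnt2, held 98.6% ± 0.141. Tpm1 held 89.9% ± 0.995 of the tropomyosins. Actc1 held 86.2% ± 1.14 of the actins. The skeletal actin Acta1 held 4.59% ± 2.31 and ranged over more than the other sarcomeric members, with 414, 195, 326 and 422 TPM in males 1 to 4 and 148, 79.0, 428 and 148 TPM in females 1 to 4. At the Z-disc Myoz2 held 99.95% ± 0.0329 of the myozenins, Actn2 95.4% ± 0.551 of the alpha-actinins and the mechanosensing LIM protein Csrp3 92.3% ± 1.32 of its family.

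In calcium handling Atp2a2 held 99.8% ± 0.0535 of the SERCA pumps, the release channel Ryr2 99.7% ± 0.0692 of the ryanodine receptors, Casq2 98.7% ± 0.420 of the calsequestrins and the exchanger Slc8a1 98.5% ± 1.70 of its family. Phospholamban, Pln, which restrains SERCA2, held 96.0% ± 3.54 of the SERCA-binding micropeptides measured. Sarcolipin, Sln, its atrial counterpart, held 3.86% ± 3.52, from 1.07% in male 4 to 10.7% in male 3. Calmodulin and its kinase had no such single form. Calm2 held 47.9% ± 3.66 of the calmodulin transcripts, and Camk2g and Camk2d held 36.3% and 33.1% of the CaM kinase II transcripts, 2 shares that change order with the length used for scaling.

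Membrane excitation rested on several clearly leading channels. The L-type calcium channel Cacna1c held 83.0% ± 5.02, the connexin Gja1 80.5% ± 2.23, the inward rectifier Kcnj2 69.5% ± 9.50 and Kcnd2 68.9% ± 6.65 of the Kv4 channels. Fxyd1, phospholemman, held 88.7% ± 1.41 of the FXYD proteins, small regulators of ion transport. The muscarinic receptor family was almost all Chrm2, at 99.4% ± 0.225.

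In most families of fuel use the muscle form led. Fabp3 held 95.6% ± 0.477 of the fatty acid-binding proteins, Acsl1 88.2% ± 1.81 of the long-chain acyl-CoA synthetases and Slc2a4, the insulin-responsive glucose transporter, 89.8% ± 1.03 of the glucose transporters. In glycolysis Aldoa held 99.1% ± 0.397, Eno3 96.4% ± 0.348, Pfkm 93.7% ± 0.921, Pgam2 91.9% ± 2.06 and Hk2 70.2% ± 3.30 of their families. Ldhb held 80.5% ± 2.03 of the lactate dehydrogenases. Cpt1b and Cpt1a, which admit long-chain fatty acids to mitochondria, held 52.4% ± 3.21 and 45.4%. Their order turns with the longest transcript as length, to 42.1% and 55.3%, and without length scaling, to 33.0% and 64.7%. Their shares are uncertain, since 93.0% of the words of Cpt1b occur in another listed gene.

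Energy transfer and respiration had their own muscle forms. Ckmt2 held 75.2% ± 2.33 of the creatine kinases with the cytosolic Ckm at 24.2%, and Slc25a4 held 89.1% ± 1.13 of the translocators. Of the cytochrome oxidase subunits with paired forms, Cox6a2 held 90.8% ± 0.814, Cox8b 84.0% ± 0.797, Cox7a1 57.0% ± 1.20, and the ubiquitous Cox4i1 and Cox6b1 held 98.4% ± 0.183 and 99.7% ± 0.0634. In translation the striated-muscle ribosomal protein Rpl3l held 68.3% ± 4.58 against 31.7% for the general form Rpl3, of whose words 58.4% occur elsewhere in the table. Rpl22 held 79.7% ± 1.21 of its pair.

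In a smaller set of families the leading member or its share moved between controls. Elongation factor Eef1a1 held 57.7% ± 14.5 of its pair, from 39.2% in male 4 to 87.4% in female 2. Its own level moved little, between 578 and 770 TPM, whereas the muscle and neuron form Eef1a2 stood at 572, 635, 646 and 898 TPM in the males and at 275, 105, 631 and 603 TPM in the females. Females 1 and 2 lay below all other controls for Eef1a2. Adrb1 held 66.7% ± 19.7 of the beta-adrenergic receptors, with 21.8% in female 2 and 56.3% to 80.9% in the others. The estrogen-related receptor Esrra held 59.8% ± 17.8 with 21.7% in female 2, and Mef2d, level with Mef2a in mean TPM, held 41.0% ± 16.2 against 44.6% ± 13.8, from 10.7% in female 2 to 60.5% in male 4. Ucp3, an uncoupling protein of muscle mitochondria, held 70.7% ± 15.7, and Ppara, the receptor that drives fatty acid oxidation genes, held 64.0% ± 14.9 with 32.4% in male 3. With the GC and length trend described below removed, the within-sex SD of Adrb1 fell from 0.95 to 0.49 log2 units. The median of Eef1a1 and Eef1a2 fell from 0.52 to 0.21, and Esrra and Mef2d kept 0.92 and 0.80. Without female 2 no measured member of these 4 families reached 0.7, whereas members of the uncoupling protein and PPAR families did.

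The natriuretic peptides Nppb and Nppa, hormones of the stretched heart, had nearly equal means, 50.9% and 49.1% ± 12.2 each. Nppb stood at 269, 589, 484 and 359 TPM in males 1 to 4 and 392, 665, 364 and 192 TPM in females 1 to 4. It led in 5 of the 8 libraries, and Nppa led in the others. No order of the 2 genes held beyond the spread between libraries.

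**Figure D2:**
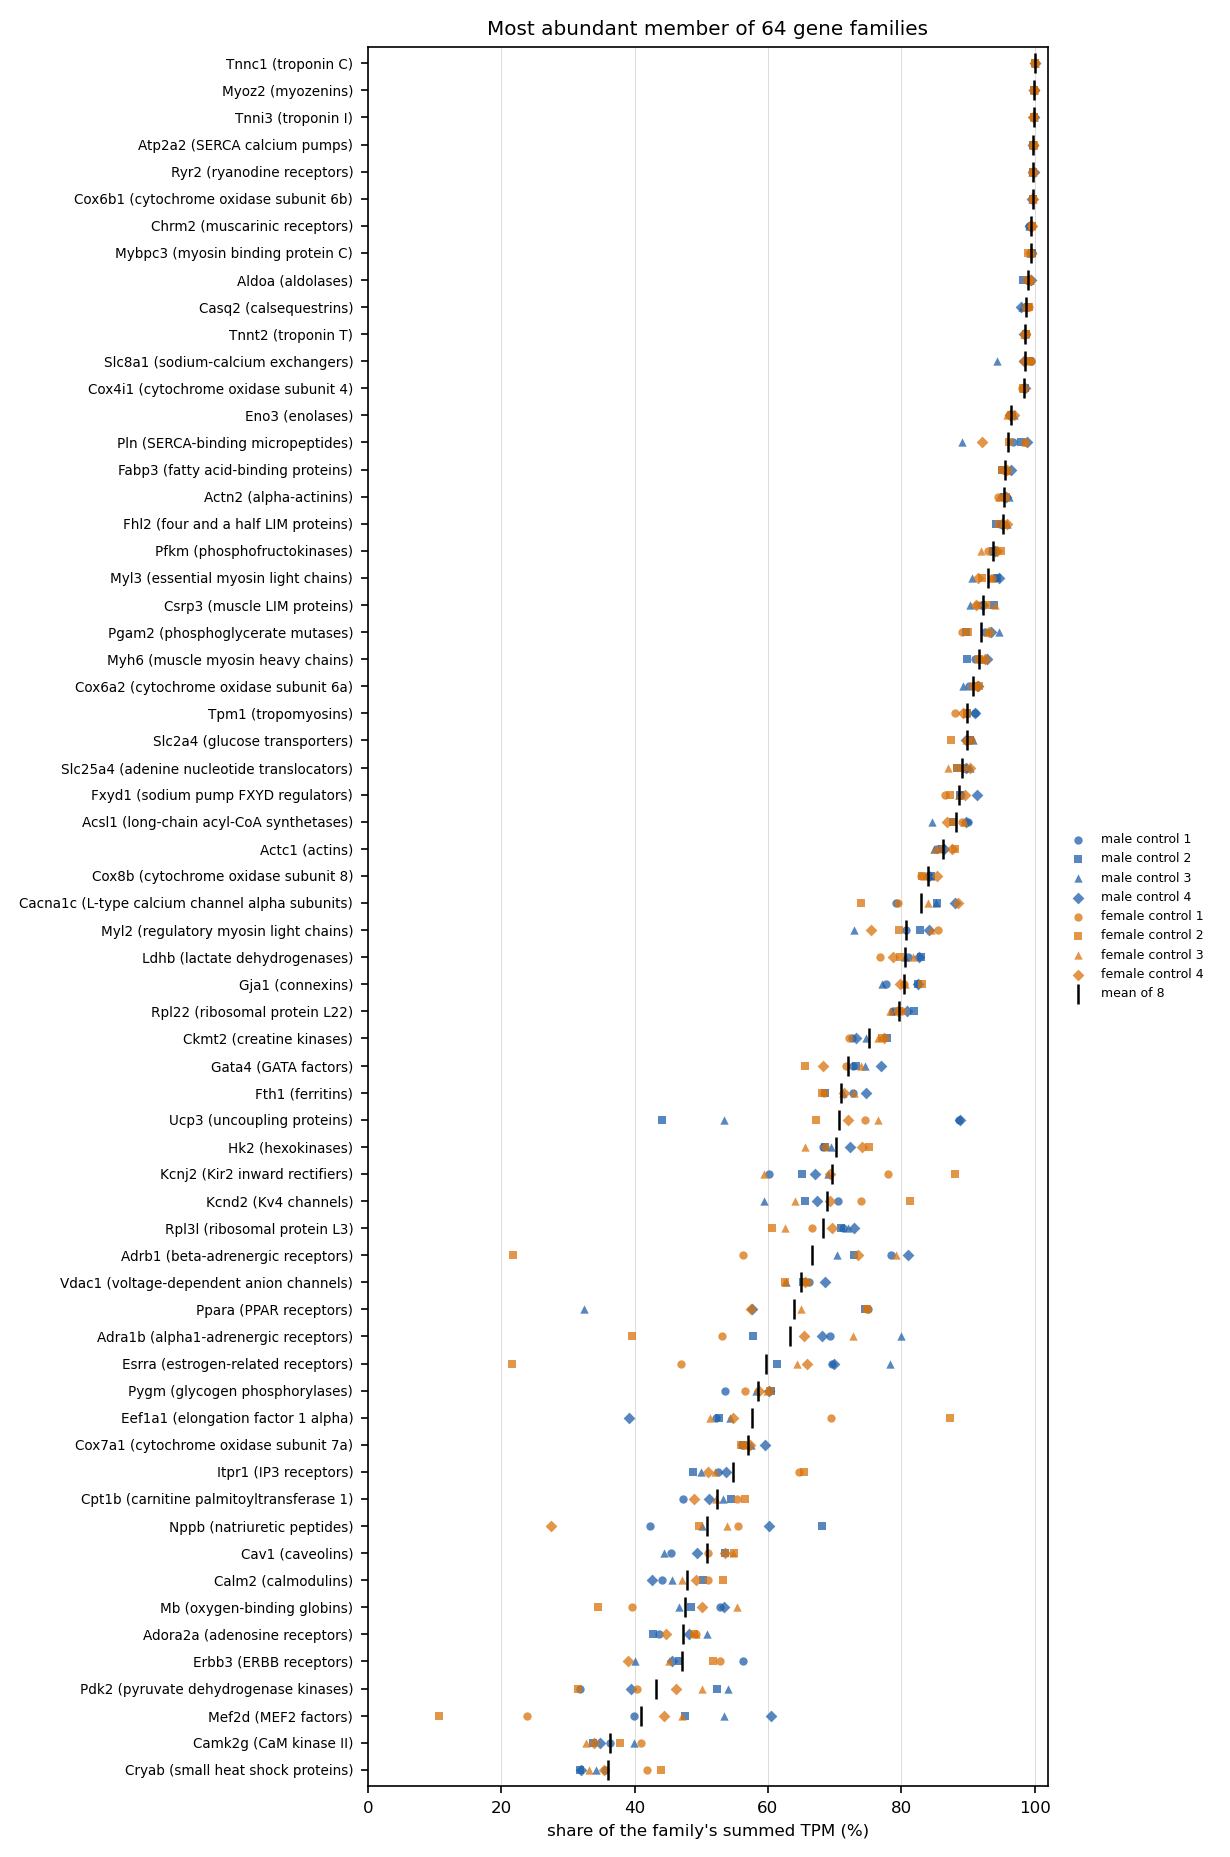
Share, in percent of the family's summed TPM, of the most abundant member of 64 gene families in each of the 8 control libraries (blue, males; orange, females; black marks, means). Troponin C, myozenins and troponin I sit at or near 100% in every library, and the points of Eef1a1, Adrb1, Esrra and Mef2d spread widely with female 2 at one end.

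Sets of 4 to 15 marker genes were then summed for 30 cell types or states. The 10 ventricular cardiomyocyte markers, which include Myh6, Actc1 and Myl2, summed to 23558 ± 1971 TPM (SD, n = 8), between 20976 and 26777. The remaining lists were far lower, and 24 of the 30 lists summed to 10 TPM or more. Fibroblast markers summed to 1117 ± 94.2 TPM, led by Gsn at 645 and Dcn at 207 TPM, with the collagen genes Col3a1 at 25.3 and Col1a1 at 13.5 TPM. Endothelial markers summed to 622 ± 55.6 TPM, with the capillary lipid carrier Fabp4 at 214, the junction cadherin Cdh5 at 75.6 and Pecam1 at 60.2 TPM. Pericyte markers summed to 558 TPM, of which Rgs5 gave 320 and the potassium channel subunit Abcc9 96.5, and the latter is also a gene of cardiomyocytes.

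Sums of some lists rest on single genes that cardiomyocytes also express. The vascular smooth muscle sum of 743 ± 161 TPM held 518 TPM of desmin, Des, an intermediate filament of all muscle, and 145 TPM of Acta2, while the smooth muscle myosin Myh11 stood at 11 TPM. The brown adipocyte sum of 1715 TPM was 1608 TPM of Cox7a1, and Ucp1, the gene that defines brown fat, had 2.57 ± 4.83 TPM. Skeletal muscle markers summed to 1127 ± 216 TPM, with 849 of Ckm and 270 of Acta1, and the fast skeletal myosins Myh1, Myh2 and Myh4 were at 0.191, 0.0182 and 0.164 TPM. Defining genes of skeletal fibres were therefore near 0 in a list with a high sum.

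Red cell markers stood above those of fibroblasts and endothelium, and markers of immune cells stood below them. The erythroid sum was 4953 ± 1682 TPM, nearly all of it the 4 globin genes, from 3361 in female 3 to 8204 in female 2, and its words overlap between copies so that only the sum is firm. The red cell membrane gene Slc4a1 was at 0.161 TPM. Macrophage markers summed to 228 ± 29.6 TPM, with the complement genes C1qa at 69.9 and C1qb at 63.4 and the receptor Csf1r at 10.9 TPM, and ranged only from 196 in female 3 to 278 in male 3. B cell markers summed to 41.0 ± 26.9 TPM and neutrophil markers to 21.4 ± 20.4 TPM, both highest in male 2 (97.7 and 65.0) and lowest in female 4 (13.8 and 2.83). T cell markers summed to 7.33, natural killer cell markers to 2.99, mast cell markers to 12.4 and cell division genes to 8.86 TPM.

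Markers of several further structures were present at low sums. Lymphatic endothelial markers summed to 129 TPM, of which the chemokine Ccl21a gave 73.7, valve interstitial markers to 66.1, endocardial markers to 65.2, Schwann cell markers to 47.2, conduction system markers to 34.8 ± 12.3 and epicardial mesothelial markers to 29.8 TPM. Schwann cell and valve sums again rested on 1 gene each, Pmp22 at 39.7 and Cytl1 at 42.4 TPM. Cytl1 is on the endocardial list as well and gave most of that sum too, so the valve and endocardial sums are not separate measures. The lung surfactant genes Sftpa1 and Sftpd and the airway gene Scgb3a2 had no count in any of the 8 libraries. A count of 0 among the 93978766 counts of the 8 libraries together allows up to 0.0319 CPM, and this limit covers counting error only. Hepatocyte markers summed to 1.2 TPM and thymus epithelium markers to 0.880 TPM.

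**Figure D3:**
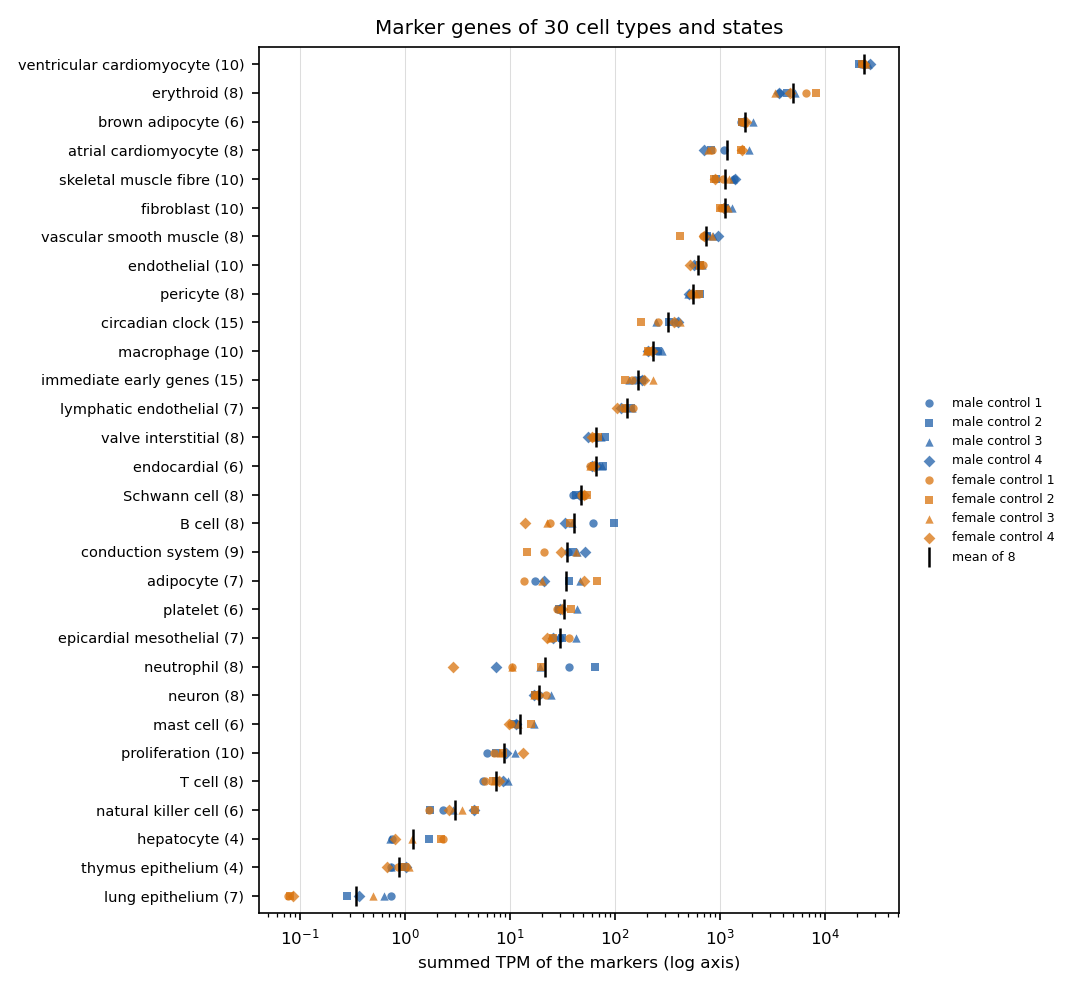
Summed TPM on a log axis of 30 marker lists in each of the 8 control libraries (blue, males; orange, females; black marks, means; number of markers in brackets). The ventricular cardiomyocyte list lies at 20976 TPM or more in every library, the atrial list runs from 703 TPM in male 4 to 1873 TPM in male 3, and lung, thymus and liver lists lie near or below 1 TPM; the hepatocyte sum of male 4 is 0 and is not drawn.

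Differences between control hearts were measured as the standard deviation of log2 CPM within a sex, pooled over males and females, for the 9816 genes with a mean of 10 CPM or more. The median gene had a within-sex SD of 0.22 on the log2 scale, with the 10th and 90th percentiles at 0.13 and 0.56, against a median of 0.07 for counting error alone. An SD of 0.7 or more was reached by 622 genes, 6.34% of those measured. Variation was not spread evenly over libraries. Of these 622 genes, 575 were lowest in female 2 and 25 were lowest in male 3. Their median GC content was 58.0% against 49.2% over all genes measured.

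Female 2 stood apart, and the difference ran with GC content. Genes with over 60% GC, 267 in number, had a median deviation of −1.77 log2 units from the mean of the 8 controls in female 2 and −0.65 in female 1, and of 0.66 in male 4 and 0.56 in male 3. Across genes, the rank correlation of that deviation with GC content was −0.56 in female 2 and 0.62 in male 3, given here as a description. The leading principal component held 62.7% of the variation within the sexes, with female 2 at 0.71 and the other libraries between −0.46 and 0.18. The second held 19.3%, with male 3 at 0.80 and the other libraries between −0.45 and 0.095. Across genes, the deviation of male 3 had a rank correlation of −0.37 with length, the lowest of the 8 controls. After a smooth trend in GC content and length was taken out of each library, 234 genes, 2.38%, had an SD of 0.7 or more, and 172 of them were among the 622. Without female 2, 211 of 9859 genes, 2.14%, reached it. The part of GC content in the differences between these libraries was not tested beyond these values.

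**Figure D4:**
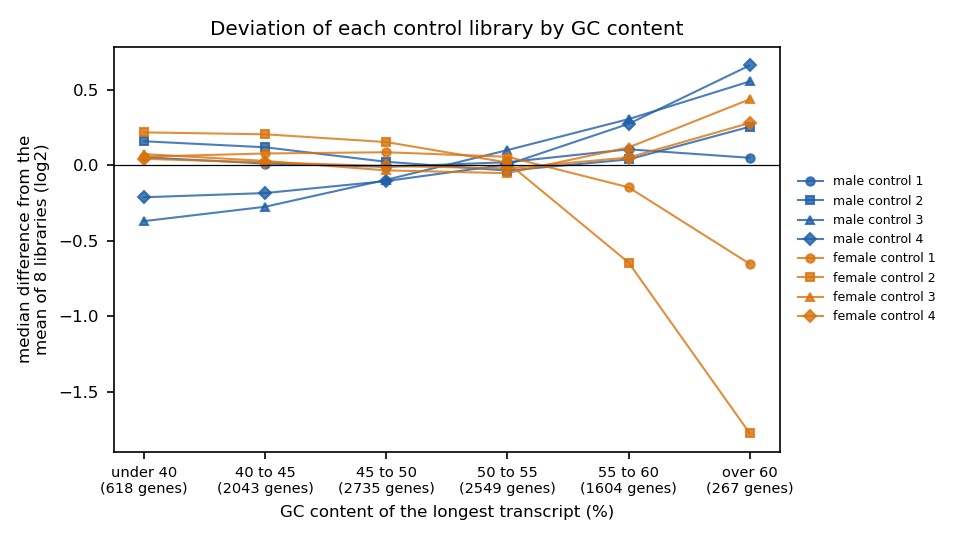
Median deviation of log2 CPM from the mean of the 8 controls, for genes in 6 bins of GC content, with 1 line for each control library (blue, males; orange, females). In the bin over 60% GC female 2 lies at −1.77 and male 4 at 0.66, and the lines lie closest together in the bin from 50% to 55% GC.

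Among genes other than predicted genes, clone names and pseudogenes, the 25 with the largest SD were taken. Of these 25, 22 were lowest in female 2, and 6 were also among the 25 so chosen after the trend was taken out. The largest SD was that of lipocalin 2, Lcn2, an iron-siderophore carrier of the acute phase, which stood at 8.11, 8.36, 1.10 and 1.40 CPM in males 1 to 4 and at 26.1, 55, 6.69 and 1.40 CPM in females 1 to 4. Its SD was 1.79 as measured and 1.82 with the trend removed, and its mean falls below 10 CPM without female 2. The transcription factor Nfix had 32.6, 83.0, 64.3 and 141 CPM in the males and 20.4, 2.65, 97.1 and 96.4 CPM in the females, an SD of 1.77 that fell to 1.46 with the trend removed and 1.05 without female 2. The basement membrane proteoglycan gene Hspg2, between 25.7 and 478 CPM, had 1.46, 0.76 and 0.97. For Dyrk1b, Cic, Plec, Rgma, Epn1, Rusc2 and Scaf1 the SD fell below 0.7 once the trend was removed. The mitochondrial asparagine tRNA mt-Tn, at 3.11, 9.56, 14.1 and 40.3 CPM in the males and 3.95, 3.20, 8.28 and 34.7 CPM in the females, kept 1.46 as measured, 1.50 with the trend removed and 1.48 without female 2.

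Several atrial genes varied together, and the SDs of Sln, Myl4 and Myl7 were over 1 with and without the trend in GC content and length. Of the 7 atrial markers with 10 CPM or more, 4 had an SD of 0.7 or more, as did 3 with the trend removed and 4 without female 2, against 6.34%, 2.38% and 2.14% of all genes. The median SD of the 7 was 0.82 against 0.22 over all genes. Sln stood at 23.8, 16, 79.3 and 7.63 CPM in males 1 to 4 and at 10.5, 32.7, 9.45 and 67.9 CPM in females 1 to 4. The atrial light chain Myl4 stood at 111, 62.8, 332 and 49.1 CPM in the males and 55.4, 175, 58.7 and 260 CPM in the females. Male 3, female 4 and female 2 were the 3 highest libraries for both, for the other atrial light chain Myl7 (255, 199 and 132 CPM there and 36.6 to 92.3 CPM elsewhere) and for Dkk3. Stard10, also on the list, did not follow them. It was lowest in female 2, at 4.75 CPM, and stood at 21.2 to 40.1 CPM in males 3 and 4 and females 3 and 4.

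Less abundant atrial genes followed in part. Bmp10, a growth factor of the atrial wall, had 6.57 CPM in female 2 and 10.3 CPM in female 4, and between 0 and 0.263 CPM in the other 6, male 3 among them with no count. The atrial myosin-binding protein gene Mybphl, which is not on the marker list and is named by its SD of 1.21 with the trend removed, had 27.1, 25.1 and 12.1 CPM in male 3, female 4 and female 2 and between 2.89 and 9.27 CPM elsewhere. Nppa varied less, with an SD of 0.54, and Clu, also on the list, had an SD of 0.23. The summed atrial list stood at 1094, 821, 1873 and 703 TPM in males 1 to 4 and 840, 1594, 769 and 1606 TPM in females 1 to 4. The 7 adipocyte markers were also highest in these 3 libraries, with a sum of 66.7 TPM in female 2, 50.9 in female 4 and 46.5 in male 3 against 13.5 to 36.5 TPM in the others. How much atrial or fat tissue each library held was not tested.

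Collagen genes divided the controls in another way than the atrial genes did. Of the 12 fibrillar and basement membrane collagens with 10 CPM or more, 9 had an SD of 0.7 or more, as did 7 with the trend removed and 5 without female 2, against 6.34%, 2.38% and 2.14% of all genes. Col1a1, the main fibrillar collagen chain, stood at 18.3, 34.9, 78.0 and 75.2 CPM in males 1 to 4 and at 16.4, 5.20, 58.9 and 74.3 CPM in females 1 to 4. Col3a1 stood at 72.2, 75.1, 225 and 185 CPM in the males and 60.4, 29.5, 167 and 199 CPM in the females. Males 3 and 4 and females 3 and 4 were above the other 4 controls for both genes with no overlap.

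These 4 libraries are the controls whose library names end in a number of 11 or more, and the other 4 have numbers up to 9. The labels do not say what the number stands for. Of the 4 with a number from 11, 3 also carry a code in their titles other than the 6 of the remaining 5 controls. Among those 5 only female 3 has a number from 11, and its 58.9 CPM of Col1a1 stood against 5.20 to 34.9 CPM in the other 4. The split was set after the values were seen. In 11 of the 12 collagens all 4 libraries with a number from 11 lay above all 4 with a number up to 9, against 393 of 9816 genes, 4.0%, over all genes measured, and 8.38% of genes lay the other way. The median deviation of genes over 60% GC divided in the same way, 0.28 to 0.66 against −1.77 to 0.26, and in each lower bin of GC content the 2 sets overlapped. Col1a1 has 58.9% GC, Col3a1 52.5% and Col4a2 60.6%. With the trend removed the SD of Col1a1 went from 1.40 to 0.93 and that of Col4a2 from 1.13 to 0.44, and that of Col3a1 stayed at 1.09. The split was not tested with the trend in GC content and length removed. Col15a1 had 68.9 to 78.2 CPM against 8.31 to 23.3 CPM, Col6a3 had 35.9 to 43.8 against 9.31 to 18.2 and Col4a1 had 313 to 362 against 58.5 to 229. Col8a1 was the exception, with 16.5 to 26.5 against 12.3 to 23.8 CPM. Of the 9 fibroblast markers with 10 CPM or more, 3 divided in the same way, Col1a1, Col1a2 and Col3a1, which are also on the collagen list. The 2 genes that give most of the fibroblast sum overlapped between the 2 sets, Gsn at 986 to 1264 against 898 to 1094 CPM and Dcn at 494 to 612 against 586 to 741 CPM. The summed fibroblast markers lay between 1099 and 1298 TPM with a number from 11 and between 1002 and 1142 TPM with a number up to 9.

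Genes that follow the hour, hormones and feeding made up other groups that varied. Of the 13 circadian clock genes with 10 CPM or more, 7 had an SD of 0.7 or more, 5 with the trend removed and 3 of 12 without female 2, where all genes gave 6.34%, 2.38% and 2.14%. Per1, a clock repressor that glucocorticoids also induce, stood at 44.9, 41.9, 18.6 and 52.4 CPM in the males and 8.07, 5.11, 60.7 and 80.9 CPM in the females, with an SD of 1.46, 1.03 with the trend removed. Arntl, the clock activator that runs in antiphase to the Per genes, stood at 7.68, 12.2, 13.2 and 7.35 CPM in the males and 16.3, 25.7, 8.62 and 1.80 CPM in the females. Female 2 was lowest for Per1 and highest for Arntl, and female 4 was highest for Per1 and lowest for Arntl. Dbp, an output gene of the clock, had an SD of 0.82, which fell to 0.33 with the trend removed. No source used here gives the hour at which hearts were taken.

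Of 12 glucocorticoid targets, 5 had an SD of 0.7 or more as measured, 5 with the trend removed and 5 without female 2, beside 6.34%, 2.38% and 2.14% of all genes. Zbtb16 was at 79.3 and 80.1 CPM in females 3 and 4 and between 7.54 and 22.8 CPM in the other 6 controls. Fkbp5, a co-chaperone of the glucocorticoid receptor, was at 10.6 and 11.4 CPM in males 3 and 4 and between 20.1 and 39.8 CPM in the others. Cdkn1a, a cell cycle inhibitor, was at 10.6, 10.5 and 13.5 CPM in males 3 and 4 and female 4 and between 26.0 and 51.7 CPM in the others. It also divided by library number, with 10.5 to 26.0 CPM from 11 and 28.0 to 51.7 CPM up to 9. In all, 2 of the 12 targets lay lower in this way, against 8.38% of all genes.

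Of 12 targets of fasting and PPAR alpha, 3 had an SD of 0.7 or more, 4 with the trend removed and 4 of 13 without female 2, beside 6.34%, 2.38% and 2.14% of all genes. Pdk4, which shuts carbohydrate out of the citric acid cycle, was at 419, 154, 201 and 643 CPM in males 1 to 4 and 136, 97.2, 184 and 249 CPM in females 1 to 4. Ucp3 was at 134, 19.0, 49.9 and 162 CPM in the males and 41.1, 17.3, 72.9 and 59.3 CPM in the females. Males 1 and 4 were the 2 highest libraries for both.

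**Figure D5:**
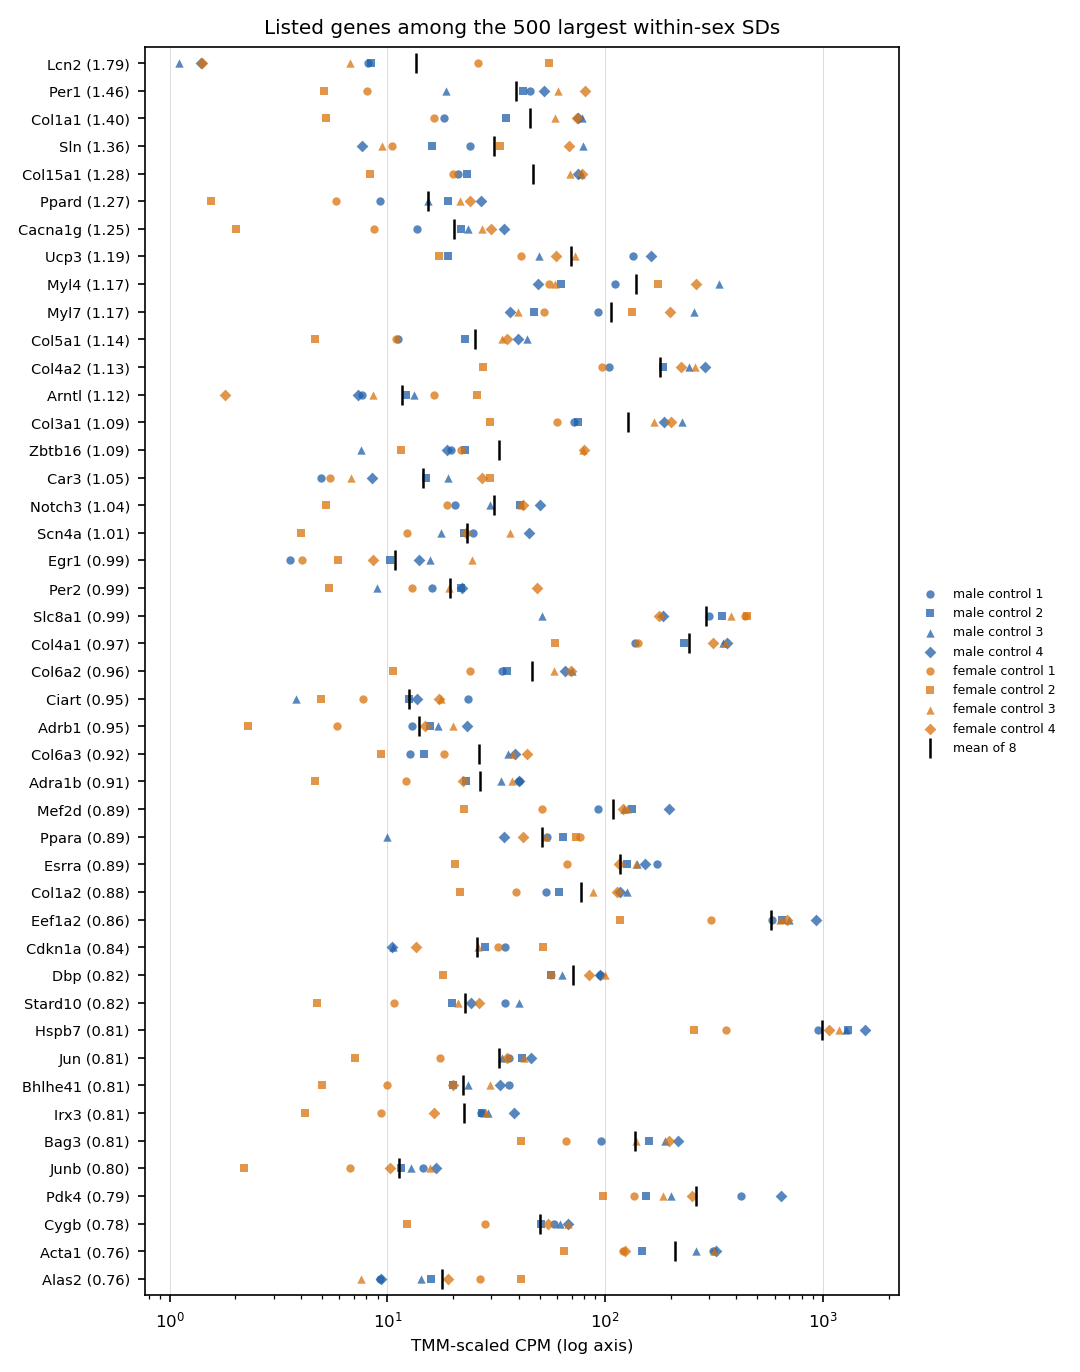
CPM on a log axis, in each of the 8 control libraries (blue, males; orange, females), of 45 listed genes among the 500 with the largest within-sex SD, ordered by that SD, which stands in brackets. Sln, Myl4 and Myl7 show the same 3 libraries at the top, and Lcn2 runs from 1.10 to 55 CPM.

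Ventricular cardiomyocyte markers, respiratory genes and ribosomal protein genes had median SDs somewhat below that of all genes, whereas the wider sarcomere list did not. None of the 10 ventricular cardiomyocyte markers, the 26 nuclear genes of oxidative phosphorylation or the 30 cytosolic ribosomal protein genes had an SD of 0.7 or more, which 6.34% of all genes reached, so that 0 in lists of 10, 26 and 30 genes is near the background. Their median SDs were 0.18, 0.16 and 0.20 against 0.22 over all genes. The 21 sarcomere genes had a median of 0.23, the muscle myosin heavy chains 0.35 and the actins 0.36. Of the 21 sarcomere genes, 1 had an SD of 0.7 or more, against 6.34% of all genes. With the trend removed 1 respiratory gene, Cyc1, and 1 ribosomal gene, Rps15, passed it, at 0.78 and 0.91 against 0.23 and 0.24 as measured. None of the 10 endothelial markers and none of the 8 macrophage markers with 10 CPM or more passed it. The 2 least variable genes with 100 CPM or more were Ndufa10, a complex I subunit, at 509 to 592 CPM with an SD of 0.05, and Mdh1, at 2019 to 2495 CPM with an SD of 0.05.

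Few genes passed the threshold in the comparison of male and female controls. Of 16400 genes tested with edgeR's quasi-likelihood test, 6 genes, 0.0366%, passed a Benjamini-Hochberg adjusted p of 0.05, 2 of them higher in females (0.0122%) and 4 lower (0.0244%), and 1117 had an unadjusted p under 0.05. The sexes did not overlap in 645 genes, 3.93%. Of the 6, 5 define the sex chromosomes: Xist, the RNA that silences an X chromosome, was higher in females, and the Y-linked genes Eif2s3y, Kdm5d, Ddx3y and Uty were higher in males. The other was Eif2s3x, an X-linked translation initiation factor, with 289 ± 11.5 CPM in females and 152 ± 27.8 CPM in males (SD, n = 4 each). Its log2 difference of female minus male was 0.93 with a standard error of 0.12 and an edgeR adjusted p of 0.00277, and all 4 females lay above all 4 males. The X-linked demethylase Kdm6a, with 54.8 ± 6.95 CPM in females and 27.1 ± 6.72 CPM in males, had a log2 difference of 1.01 with a standard error of 0.19 and an edgeR adjusted p of 0.114. With a fit to the 8 controls alone, Eif2s3x had an edgeR adjusted p of 0.195 and no gene beyond the sex-linked 5 passed, while 1039 genes had an unadjusted p under 0.05.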

How the data were processed

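RNA from ventricles was sequenced as paired reads of 50 bp, per the labels' protocols. The authors deposited raw counts per gene and library in 1 table. STAR 2.6.1d, featureCounts of Subread 1.6.3, DESeq2 1.30.1, FastQC and MultiQC and the build mm10 are named in the submitters' processing notes, but no source used here states which annotation was counted, whether strand was used or what happened to reads with several matches. Lengths, positions and sequences came from GENCODE vM21, to which 33367 of 33399 gene IDs matched.

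TPM was computed from the deposited counts and the summed exon length, which is a gene-level length and misstates the level of genes that use only some of their exons. CPM was scaled by trimmed means (edgeR 4.0.16), and SDs were taken of log2(CPM + 0.5) within each sex, with 6 degrees of freedom. The sexes were compared with edgeR's quasi-likelihood test in a fit of all 16 libraries in 4 groups, on genes with enough counts by edgeR's filter at a minimum of 10. On simulated counts of this design with 200 changed genes, this test recovered 40.0% of changes of 1 log2 unit and 74.0% of those of 1.5 units, with 4 false calls. Common dispersion corresponded to a coefficient of variation of 0.230 between libraries, and the median standard error was 0.21 log2 units, which limits what 4 libraries per sex can show.

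Genes named for their variation were the 25 with the largest SD as measured and the 25 with the trend removed, each leaving out predicted genes (Gm and Rik names), clone names and pseudogenes, the 10 with the smallest among those at 100 CPM or more, and members of the gene families and lists; members named from a list because they passed or missed a threshold, and the split by library number, were chosen after their values were seen. The members, families and gene lists were chosen with earlier results of these data known. Replicate numbers follow the order of the records. Alternatives were other scalings, filters, lengths and pseudocounts, leaving out each library, DESeq2 1.42.0, limma-voom 3.58.1 and a trend in GC content and length taken out of each library by lowess (span 0.3, chosen after seeing the data). Some members of the families and lists are not reported here, in the text or the plots. No pair of libraries of 1 group agreed within counting error.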

Additional observations from a re-analysis of the deposited data

Results flagged for a closer look

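In groups of 4 libraries of 1 sex, 13 of 256 family shares, list sums and gene levels had 1 library far from the other 3 by Dixon's criterion, 5.08%, and chance alone gives about 1 in 20. Of the 13, 4 were in male 3 and 3 in male 4.

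In male 3 the share of Myl3 among essential myosin light chains was 90.6% against 94.1% to 94.6% in the other males. The same library had the highest sums of the mast cell markers (17.1 TPM against 11 to 11.7), the platelet markers (43.2 TPM against 28.7 to 29.8) and the brown adipocyte markers (2056 TPM against 1600 to 1678).

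In male 4 Tnni3 held 99.903% of its family against 99.864% to 99.865% in the other males, Fxyd1 held 91.4% against 88.6% to 88.9%, and Eef1a1 held 39.2% against 52.3% to 54.4%. Male 2 had a skeletal muscle sum of 906 TPM against 1317 to 1376 TPM in the other males, and the females ran from 877 to 1228 TPM.

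Among females, Ckmt2 held 72.1% of the creatine kinases in female 1 against 76.5% to 77.4% in the others. The valve sum was 68.4 TPM in female 2 against 60.8 to 61.7 TPM. In the males it ran from 55.3 to 80.7 TPM. The lung epithelium sum was 0.5002 TPM in female 3 against 0.0769 to 0.0863 TPM, with its surfactant genes Sftpa1 and Sftpd at 0. That sum ran from 0.283 to 0.737 TPM in the males. Adora2a held 44.7% of the adenosine receptors in female 4 against 48.9% to 49.3%, and mt-Tn stood at 34.7 CPM there against 3.20 to 8.28 CPM. The causes of these differences were not tested.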

How the results depend on the processing

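The number of genes that held 50% of the counts was 541, and became 722 without mitochondrial genes, 154 on the TPM scale, 622 without genes that share 90% or more of their words and 534 to 549 when 1 library at a time was left out. The 622 variable genes became 960 with a mean of 1 CPM, 284 with a mean of 30 CPM, 234 with the trend removed, 250 without both female 2 and male 3, 257 with the library number as a second term and 211 to 750 when each library was left out, 211 being the value without female 2. The 1 gene beyond the sex-linked 5 became 3 with no filter, 0 with the 8 controls alone, 4 with the code in the titles as a term, 7 by DESeq2, 3 by limma-voom and 2 with the trend removed, and stayed 1 without each library. Counts of genes at 1 TPM, of families led by 1 member at 90% and of lists at 10 TPM kept within 1.5 times under every alternative run for them.
With the longest transcript as length the lead by mean TPM passed from Camk2g (25.4%) to Camk2d, Cpt1b (42.1%) to Cpt1a and Mef2d (24.0%) to Mef2a. With no length scaling it also passed from Camk2g (19.2%), Calm2 (27.1%), Cpt1b (33.0%), Pdk2 (32.4%), Pygm (48.5%), Cryab (28.9%), Nppb (48.5%), Adora2a (35.6%) and Mef2d (23.1%). Leaving out 1 library gave Nppb 48.5% to 54.3%, losing its lead without male 2, and Mef2d 38.2% to 45.3%, falling behind Mef2a by mean TPM in 5 cases. The cause was not tested. No paired analysis was possible because the replicate numbers come from the order of the records and pair no libraries.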

Other observations

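Several further genes stood apart in 1 or more controls. The inducible chaperone Hspa1a was at 24.7 CPM in female 4 and between 0.822 and 3.60 CPM in the other 7 controls. Ucp1, the uncoupling protein of brown fat, was at 11.6 CPM in male 3 and 4.40 CPM in male 2, and between 0 and 0.601 CPM in the others. The carbonic anhydrase Car3, abundant in fat, was at 29.6, 27.1 and 18.9 CPM in female 2, female 4 and male 3 and between 4.92 and 15 CPM elsewhere, and the summed adipocyte list was highest in the same 3 libraries, at 66.7, 50.9 and 46.5 TPM, and lowest in female 1 at 13.5 TPM. S100a9, a neutrophil calgranulin, ran from 0.2 CPM in female 4 to 9.63 CPM in male 2, and the immunoglobulin light chain Igkc from 1.50 to 14.4 CPM in the same libraries.

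Removing the trend in GC content and length lowered the median SD from 0.22 to 0.19 on the log2 scale and raised the SD of some GC-rich genes. The phosphatase inhibitor gene Ppp1r14b went from 0.24 to 1.23 on the log2 scale and Tmem160 from 0.35 to 1.08. The causes were not tested.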
